A study of Mus musculus with 12 samples.

Results

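The genes described here are 8 members of the caspase machinery of apoptosis and its control: the caspases Casp2 and Casp6, the inhibitor of apoptosis (IAP) genes Xiap, Birc2, Birc3 and Birc6, and the mitochondrial factors Htra2 and Cycs. They were listed by name, with earlier results of these data known, and all 8 were found among the 38924 gene IDs counted in each of 12 RNA sequencing libraries. The study asked how activation of STING, a sensor protein of the innate immune system, affects T cells. CD4+ T cells were sorted as naive cells from the spleens of C57BL/6 mice aged 8 to 12 weeks that were either wild type (WT) or STINGgt/gt. The latter are the Goldenticket line, which lacks functional STING in every cell of the animal and is labelled STING KO. All cells, controls included, went through 2 days of expansion on anti-CD3 and anti-CD28 antibodies and 1 day of rest without them, and were then cultured for 16 h with the solvent DMSO or with CMA (10-carboxymethyl-9-acridanone), a cell-permeable agonist of mouse STING. This gave 4 groups of 3 libraries. The libraries of a group are described as biological replicates, and whether each came from a different mouse is not given in the sources used here.

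Apoptosis is carried out by caspases, proteases that lie dormant in the cell until they are cleaved or brought together. Initiator caspases respond to a signal and cut the executioner caspases, which then cut structural and repair proteins. When mitochondria become leaky, cytochrome c, the product of Cycs, reaches the cytosol and binds Apaf1, which assembles into the apoptosome and activates caspase-9. IAP proteins hold the system in check. Xiap blocks active caspases directly, whereas cIAP1 (Birc2) and cIAP2 (Birc3) are ubiquitin ligases that act mainly on signalling complexes below tumour necrosis factor receptors, and Birc6 is a very large protein that joins a caspase-binding domain to ubiquitin transfer. Htra2, a mitochondrial protease, can bind and cut IAP proteins once released. Casp6 is an executioner caspase. Casp2 is usually placed with the initiators, although its targets overlap with those of executioners.

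Birc2 and Birc3 are neighbours on chromosome 9 of GRCm38, on the same strand, and had closely similar profiles over the libraries, whereas Casp6 and Cycs were the members that fell with CMA in WT T cells. The 250 bases before their RefSeq start sites (GRCm38.p6) are therefore shown 5′ to 3′ on the strand of the gene. Birc2 has a pair of start sites in that table and the window of the more upstream of them is printed. Capitals mark matches, on either strand, to the NRF1 letters GCGCANGCG and to the cyclic AMP response element TGACGTCA.
Casp6, chr3:129901165-129901414, plus strand: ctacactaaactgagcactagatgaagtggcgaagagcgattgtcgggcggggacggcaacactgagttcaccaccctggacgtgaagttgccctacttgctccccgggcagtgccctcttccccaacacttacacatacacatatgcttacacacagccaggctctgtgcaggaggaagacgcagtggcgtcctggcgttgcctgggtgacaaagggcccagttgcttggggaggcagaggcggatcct
Birc2, chr9:7837058-7837307, minus strand: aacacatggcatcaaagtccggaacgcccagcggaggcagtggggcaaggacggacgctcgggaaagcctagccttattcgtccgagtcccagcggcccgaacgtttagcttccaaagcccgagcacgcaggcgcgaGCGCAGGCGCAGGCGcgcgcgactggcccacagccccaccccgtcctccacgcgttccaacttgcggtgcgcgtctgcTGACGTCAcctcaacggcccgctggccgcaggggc
Birc3, chr9:7873171-7873420, minus strand: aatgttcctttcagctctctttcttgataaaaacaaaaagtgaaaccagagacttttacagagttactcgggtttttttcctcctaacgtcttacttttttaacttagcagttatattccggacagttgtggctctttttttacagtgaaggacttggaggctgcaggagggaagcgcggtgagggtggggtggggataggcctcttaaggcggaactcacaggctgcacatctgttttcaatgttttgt
Cycs, chr6:50566570-50566819, minus strand: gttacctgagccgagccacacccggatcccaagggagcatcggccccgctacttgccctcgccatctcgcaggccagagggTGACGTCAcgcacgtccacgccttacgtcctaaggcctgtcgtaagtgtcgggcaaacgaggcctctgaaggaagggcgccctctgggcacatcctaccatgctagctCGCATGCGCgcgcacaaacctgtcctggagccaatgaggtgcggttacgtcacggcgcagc
The Birc2 window held 2 overlapping NRF1 matches, with first bases at -113 and -107 relative to the start site, and 1 TGACGTCA match at -35, while the window of its other start site held neither. The Cycs window held 1 TGACGTCA match at -169 and 1 NRF1 match at -61. The window of Casp2, which is not printed, held 1 NRF1 match at -22. The Birc3 and Casp6 windows held neither set of letters, nor the NF-kB letters GGGNNTTTC or the interferon response letters GAAANNGAA. Only these exact letters within 250 bases were searched, so sites spelled otherwise or lying elsewhere were not covered. Over all windows of the matched members, GGGNNTTTC had no match and GAAANNGAA had 1, in a window of Xiap. Of all 32851 promoter windows of this length in the table, 5.16% held the NRF1 letters, 1.55% TGACGTCA, 3.72% GGGNNTTTC and 7.13% GAAANNGAA. The Birc2 and Birc3 windows also differed in base composition, with a GC content of 68.4% and 31 CpG dinucleotides for Birc2 against 43.6% and 6 for Birc3. Entries were matched for 7 of the 8 genes, Htra2 being the other.

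The libraries held 27414450 to 43784910 reads on genes. Every member was well covered, with the lowest count being 1080 (Cycs, WT with CMA) and the highest 15088 (Birc6, STINGgt/gt with CMA). Levels are given as CPM, which are counts relative to the TMM-scaled library size. Alignments to more than 1 place, 27.8% to 30.3% of all entries, were not counted. The T cell markers Cd3d, Cd3e, Cd3g, Cd4, Thy1, Lck and Cd28 summed to 2460 to 2540 CPM in WT with CMA and to 2670 to 2840 CPM in the other groups, with 4 of the 7 lower and 1 higher with CMA in WT, beside 37.4% and 33.0% of all genes tested. Although the cells had been sorted, transcripts that serve as markers of other cells were detected too. No gene of these marker lists was at 0 in every library. The 5 B cell markers, Cd79a, Cd79b, Ms4a1, Pax5 and Cd22, summed to 186 to 194 CPM in WT with DMSO, 236 to 257 in WT with CMA and 78.0 to 86.3 over both STINGgt/gt groups. The 7 myeloid markers stood at 48.7 to 52.7, 60.1 to 63.3 and 34.5 to 38.9 CPM in the same order, most of it from Cst3 (a mean of 38.6 CPM in WT with DMSO and 55.7 CPM in WT with CMA). Lyz2, Itgam and Fcer1g went the other way with CMA in WT, from means of 3.25 to 1.16, of 3.31 to 1.02 and of 4.23 to 2.54 CPM. Csf1r and Adgre1 were at most 0.604 CPM in any library. The 6 CD8 and natural killer markers stood at 145 to 153, 88.0 to 95.9 and 65.1 to 72.9 CPM. Of the sum in WT with DMSO, Prf1, the perforin gene that activated T cells can also express, made up a mean of 79.6 CPM and Cd8b1 26.5 CPM. Whether such cells were present, and their part in the results below, was not tested, and in such bulk samples fewer cells of a type and less RNA per cell cannot be told apart.

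With CMA, all 8 members changed in WT T cells, 6 upwards and 2 downwards. The 4 inhibitor genes, Htra2 and Casp2 rose, by 1.16-fold (Casp2) to 2.02-fold (Htra2), and Casp6 and Cycs fell to 0.420 and 0.558 of their level with DMSO. In STINGgt/gt T cells 1 member, Casp6, passed the threshold, an adjusted p under 0.05 in edgeR's quasi-likelihood test with the Benjamini-Hochberg adjustment over the 13811 genes tested, and the next smallest unadjusted p was 0.135 (Cycs, edgeR). The response of WT cells to CMA was broad. Of all genes tested, 33.0% were higher and 37.4% lower in WT, so that a call there is common, against 0.398% and 0.920% in STINGgt/gt. The median log2 fold change of the 8 members was 0.52 in WT, with -0.04 for all genes tested, and close to 0 in STINGgt/gt. The difference between the CMA effects of the 2 genotypes, tested in the same model, was past the threshold for all 8 members, 6 being higher in WT and 2 lower, where 27.2% of all genes were higher and 31.6% lower.

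**Figure D1:**
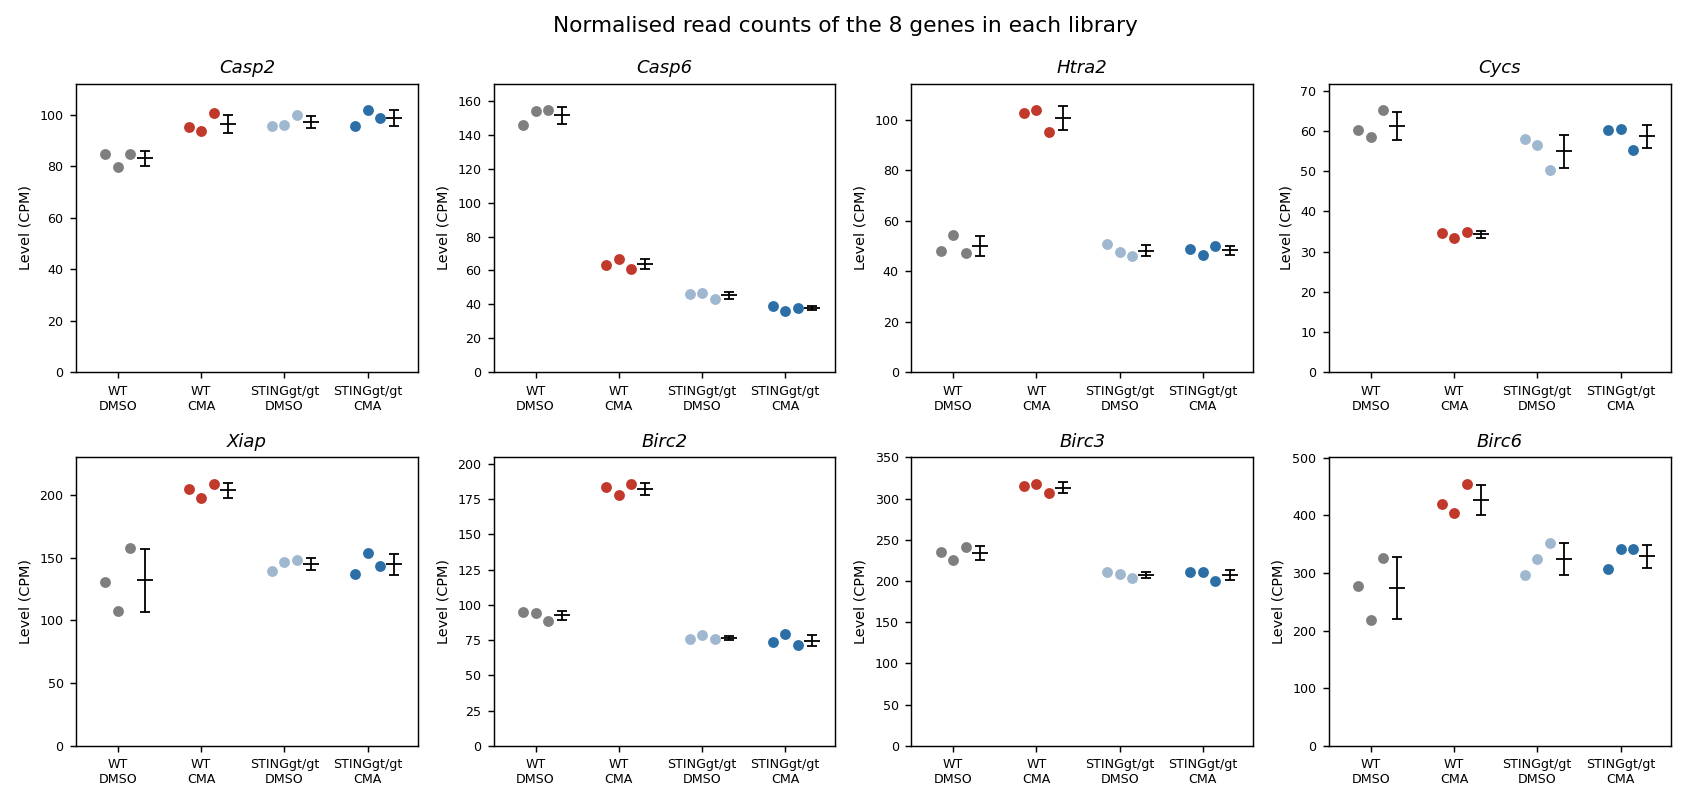
Level of each of the 8 genes in CPM (vertical axis, from 0) in the 3 libraries of each group (points), with the mean and the standard deviation beside them (black bar). The WT libraries with CMA stand above all other libraries for Htra2, Xiap, Birc2, Birc3 and Birc6 and below them for Cycs, while Casp6 is highest in WT with DMSO.

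Among the caspases, Casp6 (ENSMUSG00000027997, chromosome 3, 129901425 to 129914103) varied most between the groups. Its levels were 146, 154 and 155 CPM in WT with DMSO and 63.5, 67.0 and 60.7 CPM in WT with CMA. In STINGgt/gt they were 45.9, 46.7 and 43.1 CPM with DMSO and 39.0, 36.3 and 37.9 CPM with CMA. No 2 groups overlapped, so the order of the groups was WT with DMSO, WT with CMA, STINGgt/gt with DMSO and STINGgt/gt with CMA. In WT T cells the log2 fold change with CMA was -1.25 (standard error 0.049, adjusted p = 1.12e-12, edgeR), and 12.2% of all genes tested moved further in either direction. In STINGgt/gt it was -0.26 (standard error 0.051, adjusted p = 0.0167, edgeR). That call was lost without replicate 1 or 2 of STINGgt/gt with DMSO (adjusted p = 0.0849 and 0.113, edgeR) and without replicate 2 or 3 of STINGgt/gt with CMA (adjusted p = 0.0929 and 0.0779, edgeR), while the log2 fold change stayed between -0.30 and -0.24 whichever library was left out. The call was also lost when library names were used as a block (log2 fold change -0.21, adjusted p = 0.225, edgeR). These names share their first digit between each DMSO library and the CMA library of the same replicate number in WT and for replicates 1 and 3 in STINGgt/gt, but what the digit stands for is not given in the sources used here. Replicate 2 of each STINGgt/gt group stood alone in its block. The STINGgt/gt effect in that fit thus rested on replicates 1 and 3 (standard error 0.063). Without a block, the effect in WT minus that in STINGgt/gt was -0.99 (adjusted p = 5.45e-09, edgeR). The summed CD8 and natural killer markers had the same order of the WT groups over STINGgt/gt, at 145 to 153 CPM in WT with DMSO and 88.0 to 95.9 CPM in WT with CMA, with most of the difference from Prf1 and with Eomes going the other way, from a mean of 18.0 to 26.4 CPM. Eomes was also higher in STINGgt/gt than in WT, with means of 31.35 CPM with DMSO and 35.5 CPM with CMA. The sum was not lower with CMA in STINGgt/gt, where it ran from 65.1 to 72.2 CPM with DMSO and from 66.8 to 72.9 CPM with CMA. The summed myeloid markers, in contrast, were higher with CMA in WT. Of the 6 myeloid genes tested, Cst3 rose (log2 fold change 0.53), Csf1r (-0.07) and Cd14 (0.02) did not pass the threshold, and Lyz2, Itgam and Fcer1g fell (-1.50, -1.71 and -0.74). All 6 were higher in WT than in STINGgt/gt with DMSO, beside 22.9% of all genes, with a median log2 fold change of 2.03. For Lyz2, Itgam and Fcer1g it was 2.71, 1.35 and 1.80 (edgeR). Whether any of these cells had a part in the Casp6 levels was not tested.

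Casp2 (ENSMUSG00000029863, chromosome 6, 42264985 to 42282508) moved least. It was measured at 84.6, 79.7 and 84.6 CPM in WT with DMSO and at 95.2, 93.4 and 100.4 CPM in WT with CMA. In STINGgt/gt the values were 95.6, 95.9 and 99.7 CPM with DMSO and 95.4, 101.8 and 98.6 CPM with CMA. WT with DMSO was thus the low group, and the other 3 groups overlapped. The log2 fold change with CMA in WT was 0.22 (standard error 0.045, adjusted p = 0.000415, edgeR), and 70.2% of all genes tested moved further. In STINGgt/gt it was 0.02, with a 95% confidence interval of -0.07 to 0.12 (adjusted p = 0.869, edgeR). The difference between the effects was 0.19 (adjusted p = 0.0155, edgeR).

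The inhibitors were led by Birc2 (ENSMUSG00000057367, chromosome 9, 7818236 to 7835255), which encodes cIAP1. Its levels were 94.97, 94.0 and 88.7 CPM in WT with DMSO and 184, 178 and 186 CPM in WT with CMA. They were 75.5, 78.3 and 75.6 CPM in STINGgt/gt with DMSO and 73.4, 79.0 and 71.5 CPM with CMA. All 3 WT libraries with CMA lay far above the others, the WT libraries with DMSO came next, and the STINGgt/gt groups overlapped each other only. CMA changed Birc2 by a log2 value of 0.98 in WT (standard error 0.046, adjusted p = 1.18e-11, edgeR) and -0.03 in STINGgt/gt (95% confidence interval -0.13 to 0.06, adjusted p = 0.814, edgeR). The effects differed by 1.01 (adjusted p = 1.64e-09, edgeR).

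Birc3 (ENSMUSG00000032000, chromosome 9, 7848699 to 7873186), the gene of cIAP2, had the same order of groups with a smaller range. It stood at 235, 225 and 241 CPM in WT with DMSO and at 315.5, 318 and 306 CPM in WT with CMA. In STINGgt/gt it stood at 211, 208 and 204 CPM with DMSO and at 210.4, 210.5 and 201 CPM with CMA. With CMA the log2 change of Birc3 was 0.42 in WT (standard error 0.041, adjusted p = 1.05e-07, edgeR) and -0.0024 in STINGgt/gt (95% confidence interval -0.09 to 0.08, adjusted p = 0.989, edgeR). For the difference it was 0.42 (adjusted p = 9.89e-06, edgeR). Over the 12 libraries the log2 CPM of Birc2 and Birc3 had a Pearson r of 0.986, a description only, since the libraries of a group are not independent of their condition. The summed level of the B cell markers also had this order of WT with CMA, WT with DMSO and STINGgt/gt. With CMA in WT 4 of the 5 were higher, beside 33.0% of all genes, with Ms4a1 going from a mean of 26.7 to 57.9 CPM, and Cd79b did not pass the threshold (log2 fold change -0.03, adjusted p = 0.688, edgeR). Their part in the levels of Birc2 and Birc3 was not tested.

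Xiap (ENSMUSG00000025860, chromosome X, 42059679 to 42109656) and Birc6 (ENSMUSG00000024073, chromosome 17, 74528295 to 74703773) rose with CMA in WT as well, from more variable control levels. Xiap was at 131, 108 and 158 CPM in WT with DMSO and at 205, 198 and 209 CPM in WT with CMA. Its STINGgt/gt values were 139.6, 147 and 149 CPM with DMSO and 137, 154 and 144 CPM with CMA. Birc6 was at 277, 219 and 326 CPM in WT with DMSO and at 420.5, 404 and 455 CPM in WT with CMA. Its STINGgt/gt values were 296, 324 and 352 CPM with DMSO and 307, 341 and 341 CPM with CMA. For both genes the WT group with CMA lay above every other library and the remaining groups overlapped. The log2 fold change with CMA in WT was 0.62 for Xiap (standard error 0.092, adjusted p = 1.41e-05, edgeR). For Birc6 it was 0.64 (standard error 0.10, adjusted p = 4.07e-05, edgeR). In STINGgt/gt the 95% confidence intervals were -0.20 to 0.19 for Xiap and -0.19 to 0.24 for Birc6, and neither passed the threshold (adjusted p = 0.997 and 0.950, edgeR). The effects differed by 0.63 for Xiap (adjusted p = 0.000597, edgeR) and by 0.61 for Birc6 (adjusted p = 0.0019, edgeR). In WT with DMSO, replicate 2 was the lowest and replicate 3 the highest library for both. These 2 libraries also stood apart in how counts depended on transcript length, with slopes against the group mean of -0.035 and 0.031 on the log2 scale for each doubling of exon length and between -0.011 and 0.009 in all others, and both genes are long, with 9469 and 25772 exon bases. Without replicate 2 the log2 fold changes in WT were 0.49 for both, and without replicate 3 they were 0.78 for Xiap and 0.79 for Birc6. With the length trend removed from each library, an alternative chosen after seeing the data, they were 0.56 and 0.48 and remained past the threshold.

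Htra2 (ENSMUSG00000068329, chromosome 6, 83051266 to 83055273), which encodes the IAP-binding protease, rose about as much as Birc2, more in the fit to all libraries and less without replicate 1 of WT with DMSO (1.00 against 1.01 on the log2 scale) or replicate 2 of WT with CMA (0.98 against 0.99). It was measured at 48.2, 54.5 and 47.1 CPM in WT with DMSO and at 102.7, 104.1 and 95.2 CPM in WT with CMA. The STINGgt/gt values were 50.7, 47.8 and 46.1 CPM with DMSO and 48.7, 46.5 and 49.9 CPM with CMA. The WT libraries with CMA stood alone and the other 3 groups overlapped. With CMA the log2 change of Htra2 was 1.01 in WT (standard error 0.058, adjusted p = 1.58e-10, edgeR). In STINGgt/gt it was 0.0017, with a 95% confidence interval of -0.12 to 0.13 (adjusted p = 0.995, edgeR). The effects differed by 1.01 (adjusted p = 2.89e-08, edgeR).

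Exons of Htra2 share bases with those of 2 genes on the opposite strand, Loxl3 (18.2% of the exon bases of Htra2) and Aup1 (25.6%). The library kit keeps the strand, but the strand setting of the counting is not given in the sources used here, and without it reads of such partners cannot be told apart. Loxl3 was at 0.249 to 0.619 CPM in the libraries of the other 3 groups and at 19.6, 18.4 and 16.6 CPM in WT with CMA, so that it rose by 5.01 on the log2 scale (edgeR, adjusted p = 3.58e-14). Aup1 was at 136, 153 and 123 CPM in WT with DMSO and at 179, 194 and 181 CPM in WT with CMA, an increase of 0.43 on the log2 scale (edgeR, adjusted p = 2.28e-05). The mean level of Htra2 was 49.95 ± 4.01 CPM in WT with DMSO and 100.7 ± 4.78 CPM in WT with CMA (SD, n = 3), so both neighbours moved in the direction of Htra2, and their part in its rise was not tested.

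**Figure D2:**
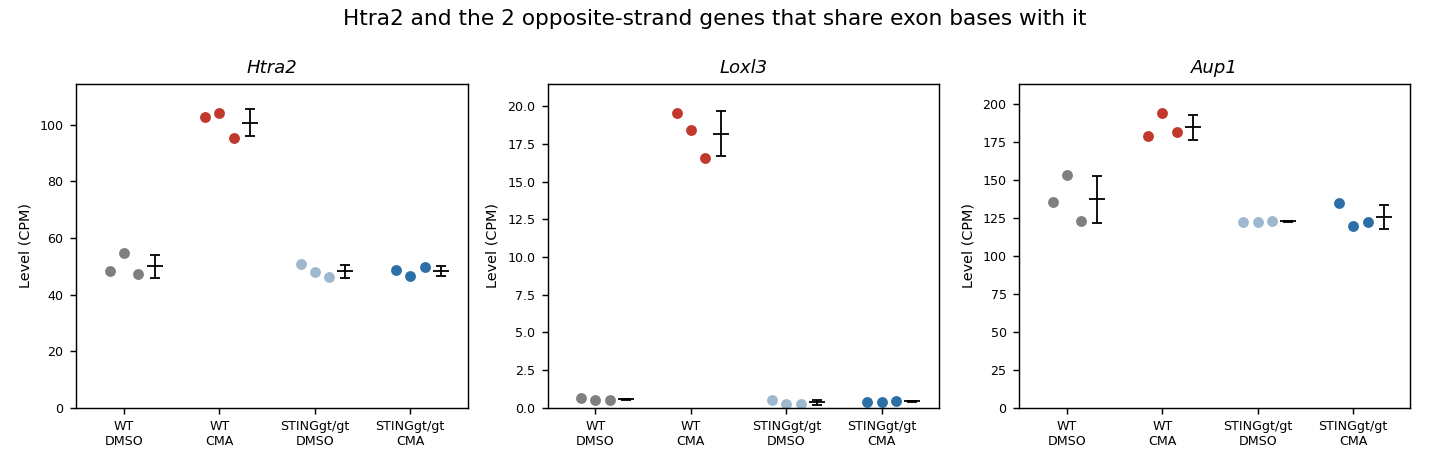
Level in CPM (vertical axes, each from 0 with its own scale) of Htra2 and of Loxl3 and Aup1, the opposite-strand genes that share exon bases with it, in the 3 libraries of each group (points) with mean and standard deviation (black bar). All 3 genes are highest in WT with CMA, where Loxl3 reaches 16.6 to 19.6 CPM.

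Cycs (ENSMUSG00000063694, chromosome 6, 50562563 to 50566538), the gene of somatic cytochrome c, went the other way. Its levels were 60.2, 58.6 and 65.3 CPM in WT with DMSO and 34.7, 33.3 and 34.9 CPM in WT with CMA. They were 58.1, 56.6 and 50.4 CPM in STINGgt/gt with DMSO and 60.4, 60.4 and 55.3 CPM with CMA. The 3 WT libraries with CMA were the lowest of the 12, and the other groups lay close together. With CMA the log2 change of Cycs was -0.84 in WT (standard error 0.061, adjusted p = 2.79e-09, edgeR) and 0.09 in STINGgt/gt (95% confidence interval -0.03 to 0.22, adjusted p = 0.553, edgeR). The difference was -0.93 (adjusted p = 9.36e-08, edgeR). Transcripts of 4 other genes, 3 of them processed pseudogenes, match the Cycs transcript over at least 300 bases at 95% identity or more, and reads that fit such a copy equally well were not counted. No other member had a near-identical copy by this measure apart from genes that overlap it.

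**Figure D3:**
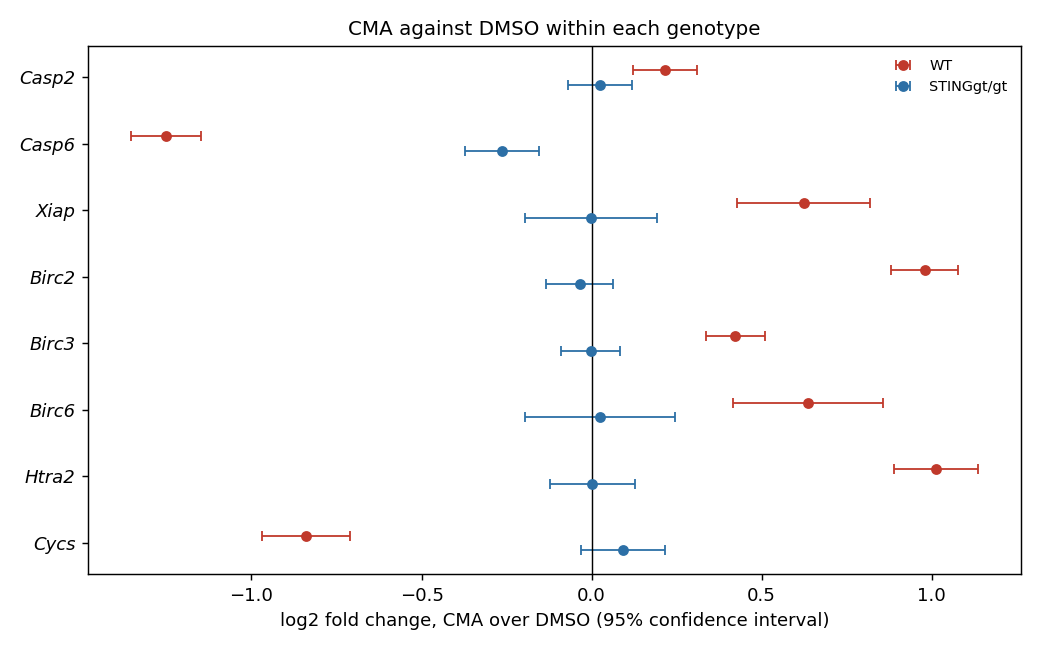
Log2 fold change of CMA over DMSO (horizontal axis) with its 95% confidence interval for each of the 8 genes in WT (red) and STINGgt/gt (blue) T cells, from edgeR's model. In WT all intervals exclude 0, from -1.25 for Casp6 to 1.01 for Htra2, and in STINGgt/gt only that of Casp6 does.

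Already with DMSO, the genotypes differed at 5 of the 8 members, with 4 higher and 1 lower in WT than in STINGgt/gt. Over all genes tested, 22.9% were higher and 19.8% lower in WT. Mice of the 2 genotypes were bought as separate stocks. Whether their cultures were prepared together is not given in the sources used here. Other differences between the lines or cultures therefore cannot be told apart from the lack of STING. Casp6 was 3.35-fold higher in WT (log2 fold change 1.74, standard error 0.050, adjusted p = 4.06e-13, edgeR), a difference that only 2.74% of all genes tested exceeded in either direction. Birc2 was 1.21-fold higher (log2 fold change 0.27, adjusted p = 0.000176, edgeR) and Birc3 1.13-fold higher (0.17, adjusted p = 0.00283, edgeR). Casp2 was lower, the log2 fold change being -0.23 (adjusted p = 0.000673, edgeR). Cycs was 1.12-fold higher (log2 fold change 0.16, adjusted p = 0.0406, edgeR), with the lowest WT library at 58.6 CPM and the highest STINGgt/gt library at 58.1 CPM, and this call was lost in 16 of 22 alternative analyses. Among them were the fits without replicate 1 or 3 of WT with DMSO (adjusted p = 0.072 and 0.165), any replicate of WT with CMA (0.0528 to 0.0627), replicate 2 or 3 of STINGgt/gt with DMSO (0.069 and 0.228) and replicate 1 or 2 of STINGgt/gt with CMA (0.0556 and 0.0565), all by edgeR. Htra2 had a log2 value of 0.05 (95% confidence interval -0.08 to 0.17, adjusted p = 0.549, edgeR). Xiap was at -0.13 (-0.33 to 0.06, adjusted p = 0.273) and Birc6 at -0.24 (-0.46 to -0.02, adjusted p = 0.0742), both from edgeR, and without replicate 3 of WT with DMSO they reached -0.29 and -0.39 and passed the threshold (adjusted p = 0.00152 and 0.000845, edgeR). The B cell, myeloid and CD8 and natural killer marker sums were all higher in WT with DMSO than in STINGgt/gt with DMSO as well. Of the 6 CD8 and natural killer genes 4 were higher and 1 lower, beside 22.9% and 19.8% of all genes. Most of that sum's difference came from Prf1 (means of 79.6 against 14.5 CPM). Eomes was lower in WT (18.0 against 31.35 CPM, log2 fold change -0.79, adjusted p = 1.46e-05, edgeR). The part of such marker transcripts in the differences of the members was not tested.

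With CMA, 7 of the 8 members differed between the genotypes, 6 being higher and 1 lower in WT, beside 37.0% and 36.5% of all genes. Birc2 was 2.44-fold higher in WT (log2 fold change 1.29, adjusted p = 2.62e-13, edgeR) and Htra2 2.08-fold (1.06, adjusted p = 5.64e-11, edgeR). Casp6 remained higher in WT, by 1.69-fold (0.76, adjusted p = 7.70e-10, edgeR), although its level in WT had fallen. Birc3 was 1.51-fold higher (0.60, adjusted p = 1.01e-09, edgeR), Xiap 1.41-fold (0.49, adjusted p = 0.000128, edgeR) and Birc6 1.29-fold (0.37, adjusted p = 0.00397, edgeR). Cycs was lower in WT, the log2 fold change being -0.78 (edgeR, adjusted p = 5.48e-09). Casp2 did not pass the threshold (-0.03, 95% confidence interval -0.13 to 0.06, adjusted p = 0.502, edgeR). The comparisons with DMSO and with CMA share libraries with those of the CMA effects and are not independent of them.

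**Figure D4:**
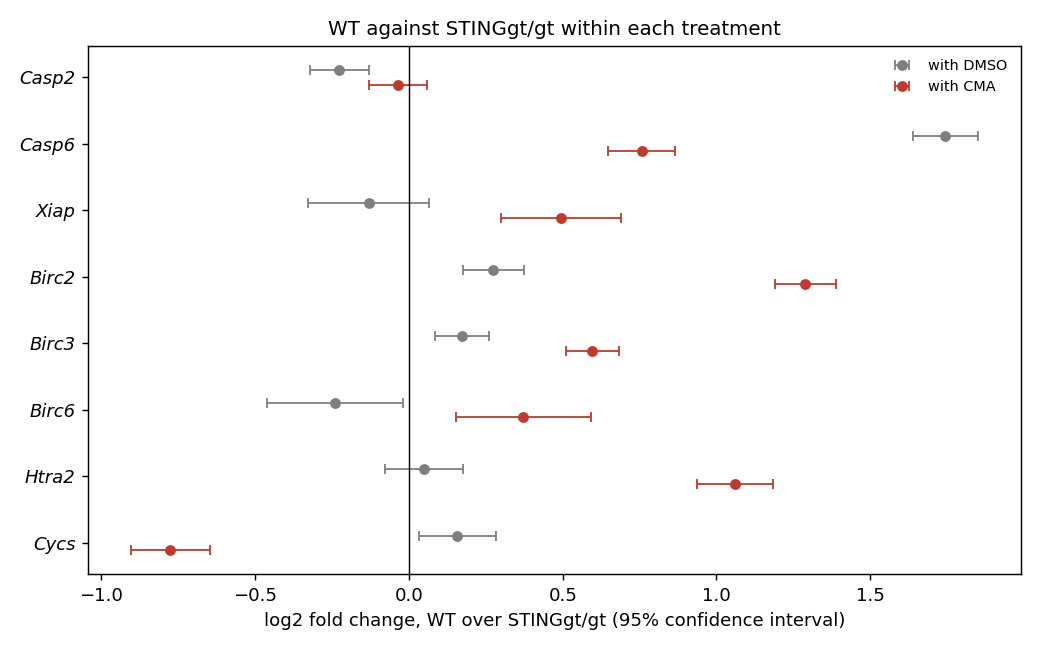
Log2 fold change of WT over STINGgt/gt (horizontal axis) with its 95% confidence interval for each of the 8 genes, with DMSO (grey) and with CMA (red), from edgeR's model. Casp6 is the member furthest from 0 with DMSO, at 1.74, and Birc2 with CMA, at 1.29.

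Levels were compared between genes only as CPM per kilobase of exon. Birc3 was the most abundant member in every group, at 46.7 ± 1.64 in WT with DMSO, 62.6 ± 1.26 in WT with CMA, 41.4 ± 0.702 in STINGgt/gt with DMSO and 41.4 ± 1.14 in STINGgt/gt with CMA (SD, n = 3). Casp6 was the next in WT with DMSO, at 27.2 ± 0.919 per kilobase, the next to last in WT with CMA, at 11.4 ± 0.561, and the last in STINGgt/gt, at 8.10 ± 0.341 with DMSO and 6.76 ± 0.247 with CMA. In WT with DMSO, Birc2 followed at 20.2 ± 0.740, and Cycs (18.0 ± 1.03), Htra2 (17.0 ± 1.36), Xiap (13.95 ± 2.65), Casp2 (11.8 ± 0.396) and Birc6 (10.6 ± 2.09) came after it, each overlapping its neighbour in this order. In WT with CMA no neighbours overlapped, and the order was Birc3, Birc2 (39.8 ± 0.942), Htra2 (34.2 ± 1.62), Xiap (21.5 ± 0.618), Birc6 (16.6 ± 1.02), Casp2 (13.7 ± 0.514), Casp6 and Cycs (10.1 ± 0.251). In both STINGgt/gt groups Birc2, Htra2, Cycs and Xiap lay between 14.4 and 17.8 per kilobase, with Casp2 and Birc6 below them. The order depended on the length used: per kilobase of the longest transcript, Casp2 came after Birc3 in both STINGgt/gt groups, at 27.5 with DMSO and 27.95 with CMA, and Birc6, at 20.55 and 20.9, stood above Htra2 and Cycs by its mean. The ranges of Birc6 and Htra2 overlapped in both groups. With either length the level of Cycs can be too low, since reads that fit a near-identical copy equally well were not counted.

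The genes with the most similar profile over the 12 libraries, by the Pearson r of log2 CPM, were named for each member as a description. For Casp6 these were Nfil3 (0.996), Piwil2 (0.995) and Rcn3 (0.994). For Birc2 they were Tmem140, Npc2 and Neurl3 (0.997 each), for Birc3 Rbms1 (0.995), Arhgap30 (0.994) and Cflar (0.993), and for Htra2 Dcaf15 (0.997), Cd52 and Syngr2 (0.995 each). Xiap was closest to Cep350 (0.993), Ubxn7 (0.992) and D14Abb1e (0.991), and Birc6 to Zfp26 (0.987), Kmt2e and Ubn2 (0.984 each). Cycs was closest to Hsd17b4 (0.995), Hdac2 (0.994) and Rpl5 (0.992), and Casp2 to Qser1 (0.984), Syne2 (0.975) and Fyb (0.971). Among the members themselves, Htra2 had an r of 0.967 with Birc2 and of -0.957 with Cycs, Xiap of 0.962 with Birc6, and Casp2 of -0.923 with Casp6. The 12 libraries are 4 groups of 3, so these values are not over independent points.

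The other genes of the pathway were taken from 5 lists. With CMA in WT 70.4% of all genes tested passed the threshold in either direction, 33.0% being higher and 37.4% lower, so most genes of any list can be called there. Of 6 other caspases 4 were tested, and 3 were higher and 1 lower, with a median log2 fold change of 0.55 where that of all genes was -0.04. Casp1, which processes interleukin precursors, had the largest change of these 4, from a mean of 6.18 CPM with DMSO to 12.0 CPM with CMA (log2 fold change 0.95, adjusted p = 2.26e-07, edgeR). Casp4, an inflammatory caspase that senses bacterial lipopolysaccharide in the cytosol, was next (0.94, adjusted p = 1.47e-09, edgeR), and Casp9, the apoptosome caspase, changed least (0.16, adjusted p = 0.0109, edgeR). The one lower gene, named after its value was seen, was Casp8 (-0.20, adjusted p = 0.000641, edgeR), the initiator below death receptors.

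Among the apoptosome and the factors released from mitochondria, 3 of 5 tested genes were higher and 2 lower in WT, beside 33.0% and 37.4% of all genes, and the median log2 fold change was 0.16. Apaf1, the scaffold to which cytochrome c binds, went from a mean of 142 to 328 CPM (log2 fold change 1.204, adjusted p = 3.02e-10, edgeR) while Cycs fell. Endog, a mitochondrial nuclease, changed most, by -1.29 (adjusted p = 8.07e-08, edgeR).

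Of 8 tested BIR proteins and IAP antagonists, 4 were higher, 1 lower and 3 did not pass the threshold, with a median of 0.26 on the log2 scale, beside 33.0% and 37.4% of all genes higher and lower. Xaf1, a binding partner of Xiap that is known as an interferon-induced gene, went from 8.85 to 130.4 CPM (log2 fold change 3.87, adjusted p = 9.60e-15, edgeR). Naip5 followed (1.42, adjusted p = 1.72e-05, edgeR) at a mean of 1.79 CPM or less in every group, and its counts are uncertain because the Naip genes are closely similar paralogs. The one lower gene, named after its value was seen, was Sept4, with a change of the same size (-1.42, adjusted p = 0.00303, edgeR). Its mean was 0.718 CPM or less in every group. Birc5, the gene of survivin, was nearest to 0 (0.06, adjusted p = 0.271, edgeR).

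Of the 7 partners of cIAP1 and cIAP2, 6 were higher in WT and 1 did not pass the threshold, where 33.0% of all genes were higher, and the median log2 fold change was 0.33. Tnfaip3, a ubiquitin-editing inhibitor of NF-kB, rose most, from 159 to 638 CPM (log2 fold change 2.00, adjusted p = 3.65e-16, edgeR). Traf1, an adaptor that binds both cIAPs, rose from a mean of 360 to 814 CPM (1.18, adjusted p = 9.79e-11, edgeR), and Ripk1, a substrate of the cIAPs, was the one that did not pass (-0.09, adjusted p = 0.201, edgeR).

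Of the caspase-2 platform and the caspase targets, 2 of 7 tested genes were higher, 3 lower and 2 not past the threshold, beside 33.0% and 37.4% of all genes higher and lower, with a median log2 fold change of -0.03. A further gene of this list was not analysed here. Lmna, the gene of lamin A and C and a target of caspase-6, had the largest change (0.92, adjusted p = 1.22e-05, edgeR), from a mean of 3.00 to 5.71 CPM. Bid, a target of caspase-8, was next (-0.55, adjusted p = 2.50e-07, edgeR), and Dffa, the inhibitor of the caspase-activated nuclease, was nearest to 0 (-0.03, adjusted p = 0.658, edgeR). In STINGgt/gt T cells 0 of the 29 tested genes of these 5 lists passed the threshold with CMA in edgeR's test, where 1.32% of all genes did. None passed with DESeq2 or limma-voom either, where 123 and 62 of all 13811 genes were higher and 200 and 125 lower. Of the 29 genes, 4 had an unadjusted p under 0.05 in edgeR's test, against 3 with each of the other tools. The share of all genes at that unadjusted level is not given here, so these numbers are a description only.

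**Figure D5:**
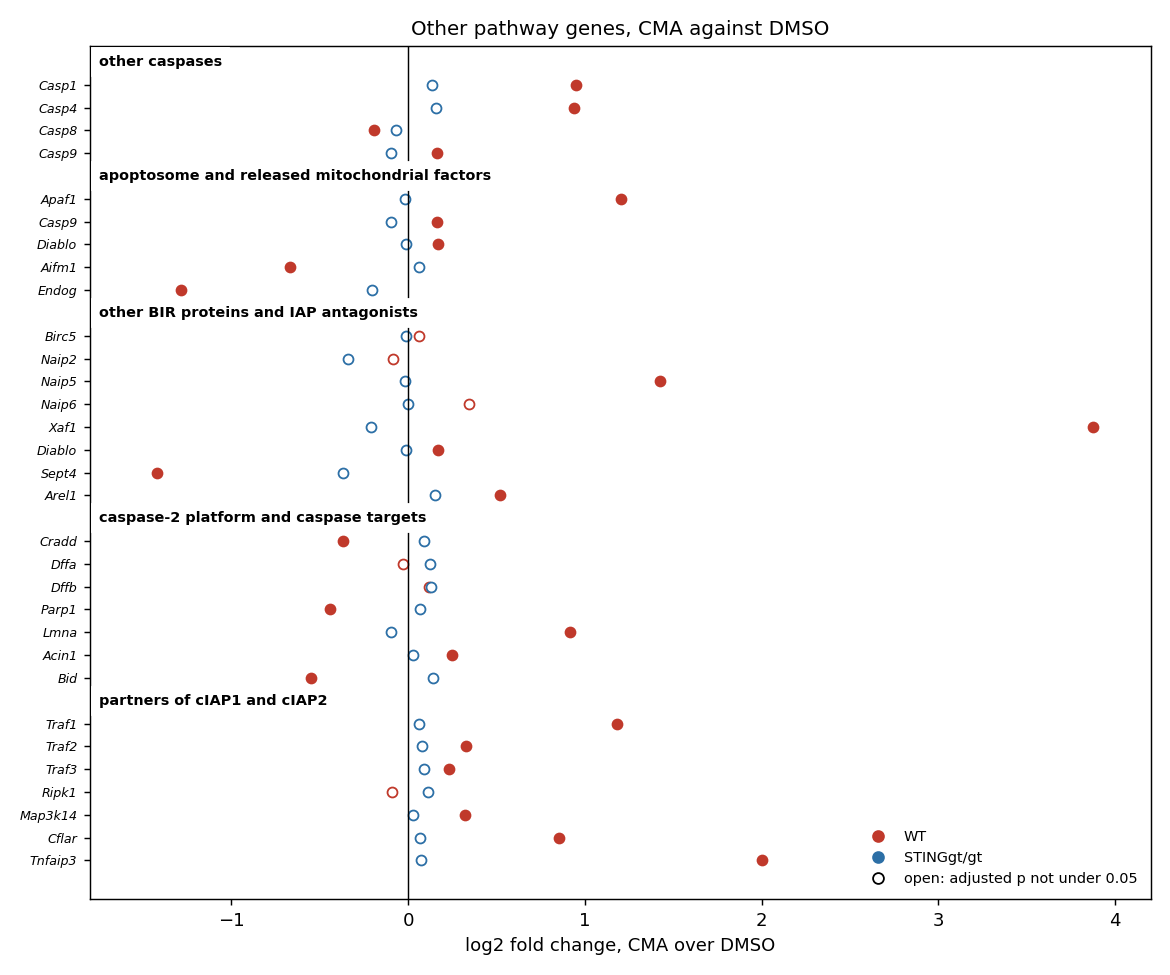
Log2 fold change of CMA over DMSO (horizontal axis) of each tested gene of the 5 pathway lists in WT (red) and STINGgt/gt (blue) T cells, with filled points for an adjusted p under 0.05 and open points otherwise. Xaf1 lies furthest to the right in WT, at 3.87, and all STINGgt/gt points are open.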

How the data were processed

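RNA was sequenced from 12 cultures of splenic CD4+ T cells. Per the labels, the authors used cutadapt 1.3, STAR 2.4.0f1, HTSeq 0.6.1 and RSEM 1.2.16 with the genome build GRCm38, and deposited the raw count of reads on each Ensembl gene. They also deposited log2 expression values for 11921 genes, which are normalised counts on the log2 scale and were used as an alternative only. Tally lines that name no gene (no feature 4.86% to 7.16%, ambiguous 0.594% to 0.635% of entries) were kept out of library sizes. Replicates of a group were no repeats of 1 library, as the chi-square of each pair divided by its degrees of freedom was 2.63 to 29.9.

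Counts were tested with edgeR 4.0.16 (R 4.3.3) using TMM scaling, filterByExpr by group (13811 genes kept, among them all 8 members) and 1 quasi-likelihood model over the 4 groups. All adjusted p-values are Benjamini-Hochberg over these genes. An exact permutation test of 3 against 3 libraries cannot pass 0.05 and was not used. Exon lengths came from GENCODE M21, and promoters from a RefSeq table. On simulated data with 200 genes changed among 13811 in the comparison of CMA with DMSO in WT, edgeR recovered 169 with 8 false calls, DESeq2 1.42.0 recovered 157 with 11, and limma-voom (limma 3.58.1) 168 with 8. In the real libraries 70.4% of all genes tested were called in this comparison, and recovery at such a share was not tested.

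The genes named are the 8 members, for each pathway list the 2 largest changes past the threshold and the gene nearest to 0, and for each member the 3 genes most alike (mean count of at least 50). Casp8 and Sept4 were added after their values were seen. The members and lists were chosen with earlier results of these data known. Some pathway and marker genes are not reported here. Alternatives were other scalings, filters, tools, thresholds and replicate blocks, and leaving out each library.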

Additional observations from a re-analysis of the deposited data

Results flagged for a closer look

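All 8 members responded to CMA differently in WT and STINGgt/gt T cells by the test of the difference itself (edgeR, 4 groups in 1 model). The difference, WT minus STINGgt/gt on the log2 scale, was 1.014 for Birc2, 1.011 for Htra2, 0.6254 for Xiap, 0.6122 for Birc6, 0.4244 for Birc3 and 0.1916 for Casp2. It was -0.9875 for Casp6 and -0.933 for Cycs. The adjusted p was at most 0.0155, that of Casp2, and such a difference was called for 58.8% of all genes tested. At an adjusted p under 0.01 the difference for Casp2 was not called. No formal test for single outlying libraries was run in groups of 3, and what leaving out each library changed is given with the results.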

How the results depend on the processing

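Over 24 alternatives, the calls of all 8 members for CMA in WT T cells kept their direction and stayed past the threshold except when a change of at least 2-fold was also required, which left 1 higher (Htra2) and 1 lower (Casp6), beside 9.32% and 7.68% of all genes. That minimum also left 0 lower members in STINGgt/gt (0.0145% of all genes lower), 2 higher and 0 lower for the difference between the effects (8.70% and 7.30%), 1 higher and 0 lower for WT against STINGgt/gt with DMSO (5.73% and 1.56%), and 2 higher and 0 lower with CMA (13% and 8.25%). The Casp6 call in STINGgt/gt was lost (0 members lower) at an adjusted p under 0.01, where 41 of all 13811 genes were lower. It was also lost with a replicate block by the first digit of the library name (log2 fold change -0.21, adjusted p = 0.225, edgeR), where 31 of 13811 were lower. That block takes replicate 2 of each STINGgt/gt group out of the effect. Leaving out 1 library gave 0 to 1 lower members, beside 41 to 289 lower genes of all 13991 to 14042 tested. The Casp6 call was lost without 4 of the libraries. At an adjusted p under 0.01, the Casp2 difference between the effects and the Cycs difference with DMSO were lost too (adjusted p = 0.0155 and 0.0406, edgeR). For WT against STINGgt/gt with DMSO, 2 members were lower with library-size scaling (Birc6 added, beside 23.1% of all genes), 3 with no filter (Xiap and Birc6 added, beside 13.8% of 22118 genes), and 2 with the exon-length trend removed (19.9% of all genes). With 1 library left out, 1 to 3 members were lower in this comparison, beside 2355 to 3130 lower genes of all 13991 to 14042 tested. The cause was not tested.

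The main model took no pairing of replicates. Deviations of same-numbered DMSO and CMA libraries correlated at 0.0102, 0.179 and 0.214 for WT. For STINGgt/gt these values were 0.0929, 0.113 and 0.117. Differently numbered libraries ran from -0.24 to 0.0883 (WT) and from -0.134 to 0.0203 (STINGgt/gt). Each DMSO library correlated best with the CMA library of its own number, except replicate 1 of WT, which correlated best with replicate 2. Pairing by number was fitted as an alternative only. With the replicate number as a block, 6 members were higher and 2 lower in WT (33.8% and 38.2% of all genes), and 0 higher and 1 lower in STINGgt/gt, as without it, while the calls over all genes in STINGgt/gt went from 55 higher and 127 lower to 130 and 233 (0.941% and 1.69%). With the block by library name, the calls over all genes in STINGgt/gt went the other way, to 12 higher and 31 lower.

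Values close to 0 that passed no threshold changed sign. With CMA in STINGgt/gt, Xiap was at 0.0023 (DESeq2), 0.0081 (no filter) and 0.0063 (at least 10 counts in every library), and Birc3 at 0.0021, 0.0074 and 0.0058. Htra2 was at -0.0013 (limma on the deposited log2 table) and -0.0017 (only the 2 groups compared), Casp2 at -0.0087 (block by library name) and Birc6 at -0.015 (exon-length trend removed). When 1 library was left out, these values ran from -0.049 to 0.034 for Xiap, -0.017 to 0.019 for Birc3, -0.030 to 0.039 for Htra2, -0.0011 to 0.045 for Casp2 and -0.038 to 0.087 for Birc6. For WT against STINGgt/gt, Htra2 with DMSO ran from -0.025 to 0.086, and Casp2 with CMA was at 0.0078 with limma on the log2 table.

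Per kilobase of the longest transcript in place of all exons, levels in WT with DMSO were 80.4 for Birc3, 38.7 for Casp6, 27.8 for Birc2, 23.5 for Casp2, 19.9 for Htra2, 19.7 for Cycs, 19.3 for Xiap and 17.4 for Birc6, so that Casp2 moved from the seventh to the fourth place. In both STINGgt/gt groups it moved above Birc2, Xiap, Htra2 and Cycs. The lowest count of a member in a library was 1080, and the effect of a lower depth was not tested.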
